A study of Mus musculus with 45 samples.

Results

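Follicular B cells sorted as Blimp1+ after culture with lipopolysaccharide (LPS) were compared with the cultured cells taken at 44 h, over all genes of the deposited table. The comparison rests on 6 of the series' 45 libraries, 3 labelled Blimp1+ and 3 labelled as the 44 h culture, and 15614 of 30317 genes passed the filter on low values. All 6 libraries came from follicular B cells of mouse spleen, genotype B6.Blimp1GFP/+, which carry a green fluorescent reporter for Blimp1, the product of Prdm1. Both groups had been kept on OP9-DL1, a stromal line that displays the Notch ligand Delta-like 1, with LPS of Salmonella enterica at 10 ug/mL, and were sorted before lysis. The 44 h cells were sorted for viability and are not described as chosen by the reporter, so that group may include Blimp1+ cells. No culture time is given for the Blimp1+ cells, and for that reason the 68 h culture on the same stroma with LPS is set beside both groups. Neither mice nor pools are named for the replicates, so the p-values measure only the spread between these libraries, which may be technical.

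Blimp1 is the transcriptional repressor that drives activated B cells to become antibody-secreting plasmablasts and plasma cells. In these cells Irf4 acts upstream of it, and Xbp1, made active by the endoplasmic reticulum (ER) stress sensor Ire1, enlarges the ER so that immunoglobulin can be folded, glycosylated and exported. Plasma cell maturation is known to silence the B cell programme, with Pax5, Ciita, MHC class II and the B cell receptor pathway, and the growth programme driven by Myc.

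The libraries held between 7401785 and 9493711 estimated reads in the Blimp1+ group and between 5918339 and 7813713 in the 44 h group. Log2 profiles correlated across genes at 0.977 to 0.983 within the Blimp1+ group, at 0.973 to 0.983 within the 44 h group and at 0.921 to 0.941 between them (Pearson, genes are not independent). None of the 6 is among the 10 libraries of the series that stand apart, but those 10 enter the pooled spread, and replicate 3 of the 68 h culture is one of them. Levels are in scaled TPM, transcripts per 1e+06 divided by a library size factor. The B cell marker Cd79a, at 2277, 2236 and 2280.4 in Blimp1+ cells against 434, 457 and 447 at 44 h, was present in all 6. Among markers of other cells, 1 of 13 T cell genes (Cd2) and 1 of 11 macrophage and dendritic cell genes (Cd68) rose. These shares are near the 7.02% of all genes that rose. No NK, neutrophil or erythroid marker passed the test, with 1 of 4, 0 of 4 and 2 of 6 at an unadjusted p under 0.05. Stroma markers moved with the groups: the summed TPM of their list was 169 to 306 in the Blimp1+ libraries and 58.5 to 110 in the 44 h libraries. Of its 25 tested members 2, Cyr61 and Col1a2, rose (1 without Blimp1+ replicate 2 or 44 h replicate 2, 4 without 44 h replicate 3), a share near the 7.02% of all genes. Without the divergent libraries 11 rose, beside 14.4% of all genes, and with the 6 libraries alone 17 rose, beside 19.8%. The median log2 fold change of the list was 1.29. Dll1, the ligand that the stroma carries, stood at 8.44, 18.5 and 5.15 against 1.28, 0.515 and 3.94 scaled TPM (adjusted p = 0.0558). With the stroma list taken out before the fit 1880 genes were called, against 1881 with it. The size factors were kept and each fold change is fitted by itself, so this leaves the fold changes of other genes unchanged. It is no test of stromal RNA in them, and the part of stromal RNA in single results was not tested.

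In all, 1881 genes passed an adjusted p of 0.05 (limma, Benjamini-Hochberg), of which 1096 were higher in Blimp1+ cells, 7.02% of the genes tested, and 785 were lower, 5.03%. At an unadjusted p under 0.05 there were 3489. Among those called, 1005 were higher and 573 lower by at least 1 on the log2(scaled TPM + 1) scale, on which all fold changes here are given and which understates the change of low genes. The 10 divergent libraries move these counts: without them 2241 genes (14.4%) were higher and 1578 (10.1%) lower, including all 1881, and a fit of the 6 libraries alone called 3097 (19.8%) and 2160 (13.8%), with 1860 of the 1881 kept.

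Scaling moves the balance of rises and falls. On TPM as deposited the median of all genes lay lower by 0.13 (log2), and 477 genes (3.05%) were higher and 919 (5.89%) lower, so that 34.2% of calls were rises against 58.3% with size factors. After quantile normalization the share was 46.5%, with 769 higher and 885 lower. The added 1 before the log damps a change of scale in low genes, so medians of lists of well expressed genes moved further than that of all genes. On TPM as deposited the median of ER chaperones was 0.85 beside 1.20 with size factors, and that of the Myc and ribosome biogenesis list was -1.93 beside -1.60. When antibody genes were removed before the size factors were computed, 918 (5.97%) were higher and 767 (4.99%) lower, 1685 in all, of which 1684 were among the 1881. Of the 1096 genes called higher above, 168 are antibody genes. They cannot be called once removed, so part of this drop is by construction. In that setting the number of called members stayed within 1 of the value given here in all 37 lists and families that held a called gene, those of antibody genes aside. The size factors are medians over genes, which the 316 antibody genes barely move, so this setting could hardly change the calls of other genes. When antibody genes were removed and the rest rescaled to the same total with no size factor, which changes 2 choices at once, 593 (3.79%) were higher and 422 (2.7%) lower, 58.4% of them rises, and 23 of the 37 held fewer calls by over 1.5 times, as 17 did on TPM as deposited. The 58.3% given above counts the 168 antibody genes and the 58.4% cannot, so these 2 shares cover unlike sets of genes. With antibody genes removed and the rest rescaled, the median of ER chaperones was 1.21 beside 1.20 with size factors. That of the Myc and ribosome biogenesis list was -1.58 beside -1.60.

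**Figure D1:**
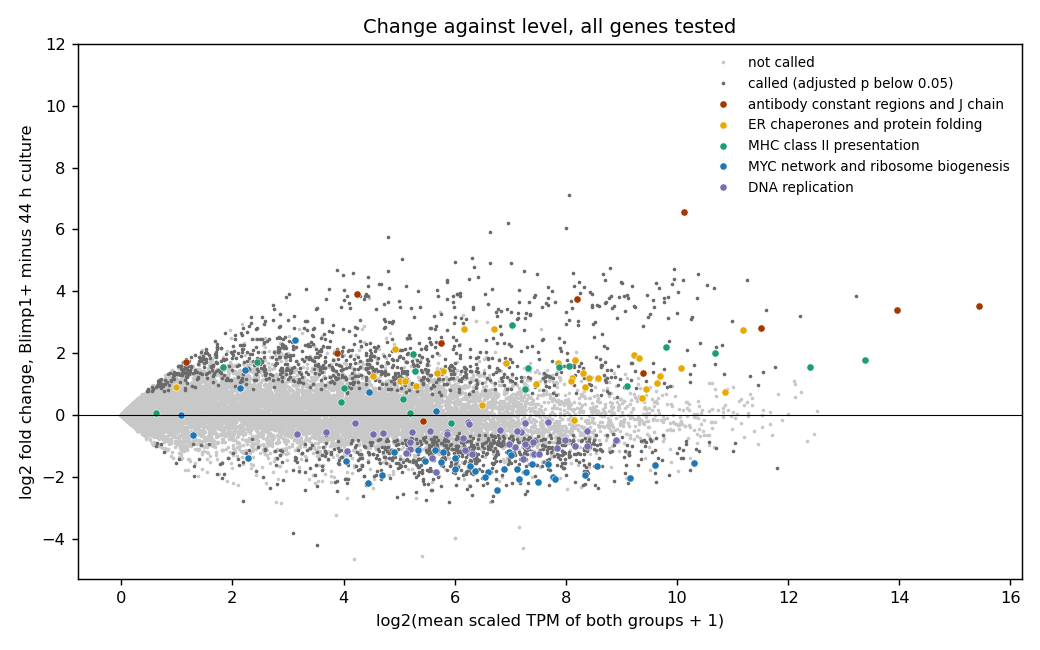
Log2 fold change (Blimp1+ minus 44 h) of each of the 15614 genes tested against the log2 of its mean scaled TPM over both groups plus 1. Dark grey points passed the test (1096 above 0 and 785 below), and coloured points are the members of 5 gene lists named in the key.

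Prdm1 (chromosome 10, 44437177 to 44528501, minus strand, GRCm38) checks the sort. It stood at 67.5, 82.7 and 76.8 scaled TPM in the Blimp1+ libraries and at 5.3, 3.01 and 3.22 at 44 h, a log2 fold change of 4.01 ± 0.33 (SE; adjusted p = 2.01e-10). Every sorted library was far above every culture. The cells are labelled by the product of this gene, so the difference describes the selection and is no finding.

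Xbp1, the transcription factor of the secretory programme (chromosome 11, 5520659 to 5525893, plus strand), gave 1297, 1366 and 1202 scaled TPM in Blimp1+ cells and 142, 142 and 142 at 44 h, with a log2 fold change of 3.17 ± 0.62 (adjusted p = 0.000379). Irf4 (chromosome 13, 30749226 to 30766976, plus strand) was at 47.1, 44.1 and 48.7 against 17.3, 15 and 20.9, a rise of 1.36 ± 0.36 (adjusted p = 0.0085). The groups did not overlap for either gene, and the step was steeper for Xbp1. Bhlha15 (chromosome 5, 144190286 to 144194441, plus strand), which encodes the secretory cell factor Mist1, was at 28.8, 28.4 and 25.8 against 1.42, 1.47 and 1.69 and rose by 3.50.

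Of 18 plasma cell regulators tested, 11 rose and none fell, with a median of 1.39 beside 0.09 over all genes, and 6 rose on TPM as deposited. Prdm1, by which the cells were selected, is among them, and without it 10 of 17 rose (median 1.36). Among the risers were Fam46c (2.82), a poly(A) polymerase that stabilizes transcripts of secreted proteins, and the elongation factors Eaf2 (2.22) and Ell2 (2.11), of which Ell2 favours the secreted form of the heavy chain. Ern1, the gene of Ire1, stood at 6.92, 7.19 and 5.91 against 2.27, 2.36 and 1.6 scaled TPM and rose by 1.32. Not called were Atf6, the ER-anchored factor of a parallel stress branch, at 0.86 (adjusted p = 0.261), and Ikzf1, the lymphoid factor Ikaros, at -0.26 (adjusted p = 0.811).

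Plasma cell surface genes were mixed. Of 26 tested, 9 rose and none fell (median 1.20), with 4 risers on TPM as deposited and 15 without the divergent libraries. There were 5 without Blimp1+ replicate 1, Blimp1+ replicate 3 or 44 h replicate 1, and 4 without 44 h replicate 3. Sdc1, which encodes the plasma cell marker CD138, lay at 3.71, 4.92 and 2.23 scaled TPM in Blimp1+ cells and 2.85, 4.0 and 3.33 at 44 h. These low values overlap, and its log2 fold change of 0.04 ± 0.59 was not called. Tnfrsf17, the survival receptor BCMA of plasma cells, was at 0, 0.26 and 0.558 against 0, 0.324 and 0.255 and was not called either. Among the risers, Lag3, an inhibitory receptor, went from 0.40, 0.209 and 0.263 to 8.36, 5.64 and 7.88 (a rise of 2.67), a step from near the detection floor to a low level. The interleukin 6 receptor chain Il6ra (1.96), the phosphatase Ppapdc1b (2.12) and the ectoenzyme Cd38 (1.80) rose too.

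**Figure D2:**
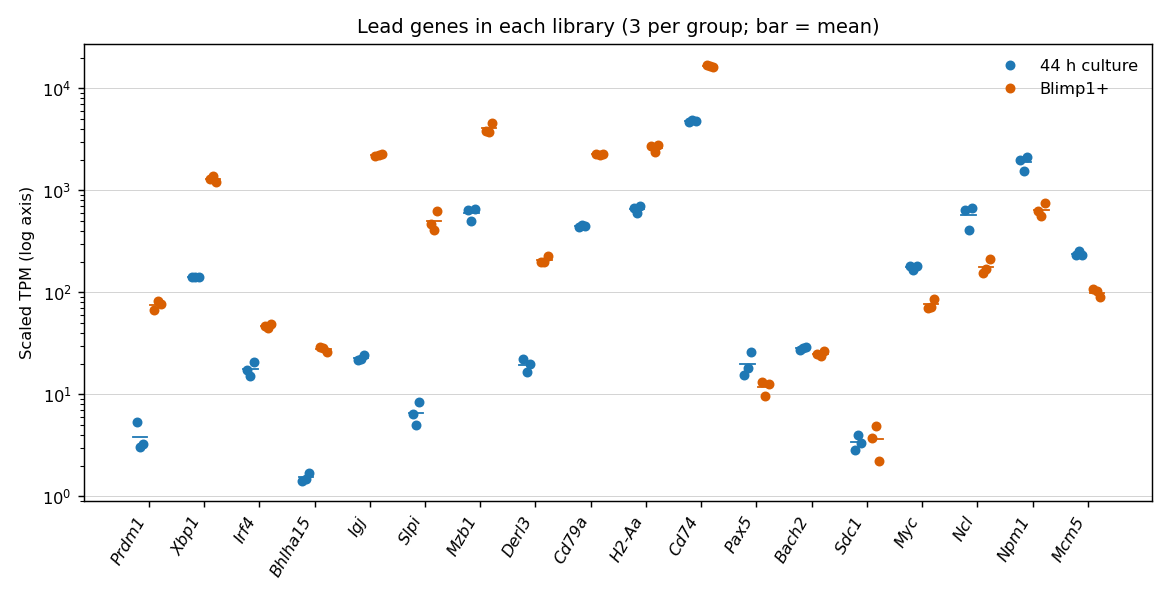
Scaled TPM (log axis) of 18 genes in each of the 3 libraries per group, with bars at the group means. All 3 Blimp1+ libraries lie above the cultures for Prdm1, Xbp1, Irf4, Bhlha15, Igj, Slpi, Mzb1, Derl3, Cd79a, H2-Aa and Cd74, below them for Pax5, Bach2, Myc, Ncl, Npm1 and Mcm5, and among them for Sdc1.

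Antibody transcripts made up 20.1%, 20.0% and 19.3% of TPM in the Blimp1+ libraries and 2.09%, 2.15% and 2.15% in the 44 h libraries. The means of 19.8% ± 0.42 and 2.13% ± 0.035 (SD, n = 3 each) differ 9.29-fold, and an exact permutation test (two-sided) gave p = 0.1, the smallest that 3 against 3 libraries allow. In bulk samples, more cells that make antibody and more of its RNA per cell cannot be told apart. Of 240 antibody genes tested, 168 rose and none fell, with a median of 3.32. Variable segments are near-identical copies among which reads can be split, so values of single segments are uncertain.

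Igkc, the kappa constant region, was the most abundant, at 80039.8, 78040.3 and 85391 scaled TPM against 7266, 6629 and 7138. Ighm, the heavy chain of IgM, stood at 29926, 27741 and 29829.7 against 2801, 2651 and 2912, a rise of 3.39 ± 0.44 (adjusted p = 7.87e-07). Igj, the J chain that joins IgM pentamers and IgA dimers, was at 2148, 2236 and 2281 against 21.5, 22 and 24.3, with a log2 fold change of 6.56 ± 0.50 (adjusted p = 2.63e-11). All 3 genes had groups that were far apart, and the J chain rose the most among the constant genes. Of the 11 genes of constant regions and the J chain, 10 rose, and 7 did so on TPM as deposited. The exception was Ighd, the IgD heavy chain of resting B cells, at 39.7, 38.9 and 38.6 against 44.9, 45.6 and 43.7 (-0.19, adjusted p = 0.924).

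The mixture of heavy chain transcripts differed too, and whether they came from switched cells was not tested. Ighm took 94.4% to 94.6% of heavy constant TPM in the Blimp1+ libraries and 83.3% to 86.2% at 44 h. Ighg2b, an isotype to which LPS directs switching, rose in level, with 1034, 888 and 980.4 against 348, 422 and 361 scaled TPM (1.36 ± 0.39, adjusted p = 0.0162), while its share was 3.03% to 3.26% against 10.7% to 13.3%. Ighg3, the other isotype linked to LPS, rose by 3.76 and took 1.62% to 1.92% against 1.06% to 1.40%. Iglc2, a lambda constant region, made up 5.62% to 6.31% of the sum of Iglc2 and Igkc against 8.81% to 10.6%. The groups did not overlap for any of these 4 shares, and no test was run on them.

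Between 192 and 199 variable segments had at least 1 TPM in the Blimp1+ libraries and between 156 and 162 at 44 h. Variable transcripts took more of the TPM in Blimp1+ libraries (kappa variable and joining 6.08% against 0.615% on average). A fixed cut of 1 TPM can therefore pass more segments there, and these counts do not measure diversity. The leading segment was Iglv1 in all 6, with 13.6% to 15.2% of variable TPM against 11.8% to 15.9%, and the 5 leading segments took 30.6% to 33.5% against 30.0% to 38.9%. These shares of the leading segments overlap between the groups.

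**Figure D3:**
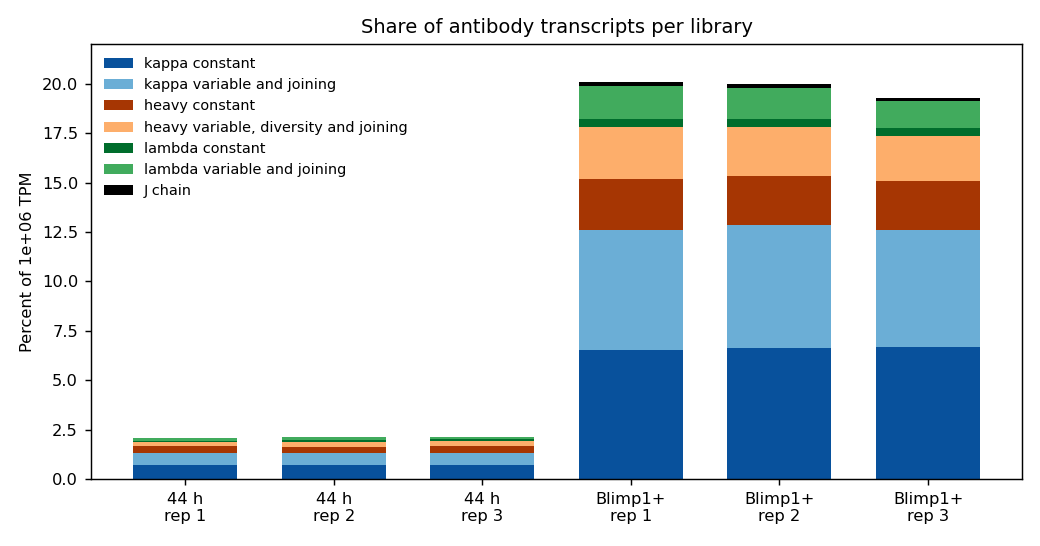
Percent of each library's TPM in antibody transcripts, stacked by class, in the 3 libraries of the 44 h culture and the 3 Blimp1+ libraries. The bars reach 2.09% to 2.15% at 44 h and 19.3% to 20.1% in Blimp1+ cells, with kappa constant (6.62% against 0.725% on average) and kappa variable (6.08% against 0.615%) the largest classes.

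Of 31 genes of protein folding in the ER, 20 rose in Blimp1+ cells. Their promoters are shown first because several hold the ER stress response element, CCAAT, then 9 bases, then CCACG, to which Atf6 and Xbp1 are known to bind. In RefSeq promoter windows (GRCm38.p6, 250 bases before to 50 after the start; both strands searched) the element was in 8 of 26 matched ER chaperone genes (30.8%) and in 37 of all 27025 genes with a promoter in that table (0.137%). It was found in 2 of 19 genes of ER-associated degradation and 1 of 25 of N-glycan transfer. None of 19 genes of ER translocation, 32 of ER to Golgi transport, 14 of MHC class II or 34 of the Myc and ribosome biogenesis list held it in this window. The core ACGTG, in 21.8% of all genes, was in 57.7% of ER chaperone genes, 68.8% of ER to Golgi genes, 41.2% of the Myc and ribosome biogenesis list and 14.3% of MHC class II genes. Of the 8 chaperone genes with the element, 6 rose (Ero1lb, Hsp90b1, Dnajc3, Pdia6, Calr and Creld2) and 2 did not pass the test (Hspa5 and Canx). Matched chaperone genes without it also included risers, such as Fkbp11 (2.77) and Dnajb9 (2.13), and genes not called, such as Pdia3 and Pdia4. Whether the element goes with a rise was not tested. A match is a description of letters and not a site shown to be bound. The shares of genes with the element describe the lists and use no value measured in these cells.

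The 250 bases before the start are printed for the 3 of these chaperone genes with the largest rises, and for Derl3 of ER-associated degradation, added after its values were seen, to show where the element lies and on which strand. Capitals mark the CCAAT and CCACG ends of each element, which read as CGTGG and ATTGG on the opposite strand. The stretches are chr13:12565633-12565882 (plus strand) for Ero1lb, chr10:86705445-86705694 (minus strand) for Hsp90b1, chr14:118937682-118937931 (plus strand) for Dnajc3 and chr10:75893148-75893397 (plus strand) for Derl3.
Ero1lb: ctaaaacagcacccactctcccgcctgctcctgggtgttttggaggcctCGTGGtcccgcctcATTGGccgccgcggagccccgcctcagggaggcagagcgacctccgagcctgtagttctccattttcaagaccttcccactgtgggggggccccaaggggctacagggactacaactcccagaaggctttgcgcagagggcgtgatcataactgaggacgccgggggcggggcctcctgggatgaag
Hsp90b1: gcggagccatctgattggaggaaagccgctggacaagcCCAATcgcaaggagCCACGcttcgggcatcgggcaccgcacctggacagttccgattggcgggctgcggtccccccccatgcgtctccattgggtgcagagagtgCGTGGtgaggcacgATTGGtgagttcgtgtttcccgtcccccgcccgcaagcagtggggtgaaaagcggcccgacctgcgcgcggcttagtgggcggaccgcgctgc
Dnajc3: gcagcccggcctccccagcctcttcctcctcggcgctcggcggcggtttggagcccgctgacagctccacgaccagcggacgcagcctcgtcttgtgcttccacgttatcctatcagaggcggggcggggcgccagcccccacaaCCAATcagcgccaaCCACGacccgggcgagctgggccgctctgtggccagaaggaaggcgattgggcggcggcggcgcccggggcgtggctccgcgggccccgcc
Derl3: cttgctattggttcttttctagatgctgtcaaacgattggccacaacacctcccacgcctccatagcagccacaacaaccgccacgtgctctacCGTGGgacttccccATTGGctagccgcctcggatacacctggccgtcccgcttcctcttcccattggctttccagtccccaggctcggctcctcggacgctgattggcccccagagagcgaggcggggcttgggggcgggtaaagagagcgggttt

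Ero1lb, the oxidase that renews disulfide bond formation, was at 116, 126 and 129 scaled TPM in Blimp1+ cells and 18.7, 12.4 and 21.6 at 44 h (2.78 ± 0.50, adjusted p = 0.000147). Hsp90b1, the ER member of the Hsp90 chaperones, was at 1564, 1697 and 1512 against 599, 458 and 601, a rise of 1.53. Dnajc3, an ER co-chaperone that restrains the kinase Perk, was at 80.1, 84.1 and 73.5 against 29.6, 31 and 27, a rise of 1.41. For all 3 genes, whose promoters are printed above, every Blimp1+ library was above every culture. Hspa5 (BiP), the chaperone that holds free heavy chains, also had separated values, 2421, 2407 and 2174 against 1443, 1325 and 1372, but its log2 fold change of 0.76 was not called (adjusted p = 0.345, and 0.017 without the divergent libraries). Canx, the lectin chaperone calnexin, overlapped between the groups, at 287, 274 and 241 against 269, 343 and 288.

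Of 31 ER chaperones tested, 20 rose and none fell, with a median of 1.20. The risers numbered 27 without the divergent libraries, 20 with antibody genes removed before size factors, 12 with them removed and the rest rescaled without size factors, and 6 on TPM as deposited, where the median was 0.85. Mzb1, a co-chaperone that helps IgM assembly, was at 3771, 3757 and 4582 against 636, 505 and 661 scaled TPM and rose by 2.75 ± 0.33 (adjusted p = 2.06e-07). It was the most abundant of the chaperones that rose and apart between the groups. The proline isomerase Fkbp11 (2.77) and the Hsp40 protein Dnajb9 (2.13) rose as well. The disulfide isomerases were uneven: Pdia6 (1.25) and P4hb (1.19) rose, while Pdia4, at 1.94 (adjusted p = 0.0508), and Pdia3, at 0.84 (adjusted p = 0.371), were not called.

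In ER-associated degradation, the disposal of misfolded chains, 10 of 24 rose, none fell and the median was 0.98. Derl3, a subunit of the channel through which chains leave the ER, was at 198, 196 and 227 against 22.1, 16.7 and 19.8 scaled TPM (3.35 ± 0.53, adjusted p = 2.17e-05), a wide separation. The factors Edem2 (2.20), Os9 (2.13) and Edem1 (1.85), which pick glycoproteins for disposal, rose too. In ER translocation and signal peptide cleavage 11 of 26 rose (median 1.04), with the signal peptidase subunits Sec11c (2.11), Spcs2 (1.78) and Spcs1 (1.71) and the translocon-associated Ssr4 (1.63) in front. With 1 library left out there were 6 to 8: 8 without 44 h replicate 1, 6 without Blimp1+ replicate 3 or 44 h replicate 2, and 7 without each of the others. In ER to Golgi transport 13 of 37 rose (median 0.71), with the COPII coat protein Sec24d (3.00), the KDEL receptors Kdelr3 (2.88) and Kdelr1 (2.07) and the GTPase activator Arfgap3 (2.31) in front, and 8 rose without 44 h replicate 1 or 3.

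In N-glycan transfer 6 of 30 rose and 1 fell (median 0.71), with 3 risers when any 1 of the 6 libraries was left out and 16 without the divergent libraries. Krtcap2 (1.46) and Ddost (1.30), both of the oligosaccharyltransferase, were among the risers, and the faller was the trimming glucosidase Mogs (-0.98), not called without Blimp1+ replicate 1 or 2 or 44 h replicate 2. On TPM as deposited, the risers numbered 3 in degradation, 4 in translocation, 2 in Golgi transport and 1 in N-glycan transfer. The autophagy and lysosome list gave 7 of 27 up and 1 down (median 0.84). Its risers were led by Wipi1 (2.21) of the early autophagosome, Map1lc3a (2.11), Lamp2 (1.93) of the lysosomal membrane and Gabarap (1.82), and the faller was Atg3 (-0.66), a conjugating enzyme, not called without Blimp1+ replicate 2 or 3 or 44 h replicate 2.

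The targets of Atf4, the branch of the stress response that answers Perk and amino acid shortage, had a median of the opposite sign. Of 29 tested, 7 fell and 1, Atf5, rose (median -0.53), with 11 fallers without the divergent libraries and 3 with antibody genes removed and the rest rescaled. Against 68 h, without the divergent libraries, the median was 0.08, 2 rose and 0 fell. The pseudokinase Trib3 (-1.82), the serine synthesis enzyme Psat1 (-1.63), the mitochondrial folate enzyme Mthfd2 (-1.58) and the aminotransferase Gpt2 (-1.56) fell the most.

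**Figure D4:**
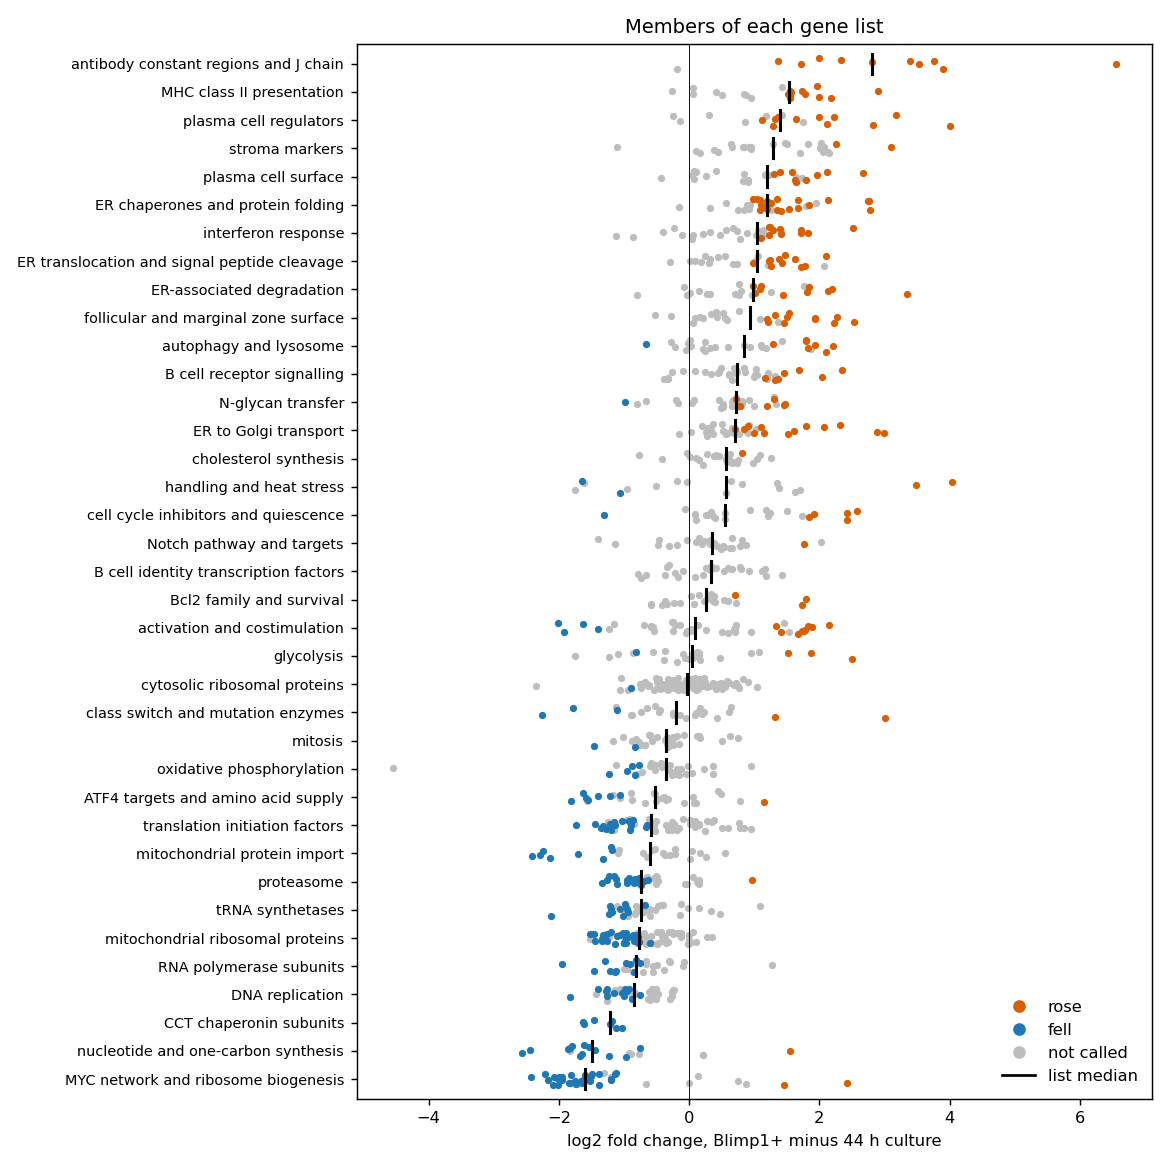
Log2 fold change (Blimp1+ minus 44 h) of every tested member of 37 lists, with black bars at the list medians and members coloured by whether they rose, fell or did not pass the test. The median is 2.81 for antibody constant regions, 1.53 for MHC class II and 1.20 for ER chaperones, and -0.85 for DNA replication and -1.60 for the Myc and ribosome biogenesis list.

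Transcription factors of B cell identity did not pass the test: 0 of 28 were called by limma over the 45 libraries (4 at an unadjusted p under 0.05; median 0.33, and 0.07 on TPM as deposited). Without the divergent libraries 6 rose and 1 fell, beside 14.4% and 10.1% of all genes. With the 6 libraries alone 10 rose and 2 fell, beside 19.8% and 13.8%. Pax5, the factor that holds B cell fate and that Blimp1 is known to repress, was at 13.3, 9.7 and 12.6 scaled TPM against 15.3, 17.9 and 26.2. Every Blimp1+ library was lower, but the log2 fold change of -0.67 ± 0.41 was not called (adjusted p = 0.376). Bach2, a repressor of Prdm1, stood at 24.8, 23.6 and 26.4 against 27, 28.6 and 29 (-0.17, adjusted p = 0.964). Bcl6, the germinal centre factor, was low in both groups, at 4.35, 2.68 and 3.89 against 2.47, 1.72 and 3.62, with overlap. Ciita, the master regulator of MHC class II and a known target of Blimp1, was at 59.5, 54.5 and 54.6 against 20.7, 20.5 and 19.6. All its Blimp1+ values were the higher ones, with a log2 fold change of 1.43 ± 0.51 (adjusted p = 0.0629, and 0.0184 without the divergent libraries).

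MHC class II genes were higher in Blimp1+ cells. The list took 2.37% to 2.64% of TPM against 0.916% to 1.1%, and 11 of 20 members rose while none fell (median 1.53). With antibody genes removed before size factors 11 rose, with them removed and the rest rescaled without size factors 7, and on TPM as deposited 4. Cd74, the invariant chain, was the most abundant at 17011, 16442 and 16021 against 4716, 4858 and 4806 scaled TPM, a rise of 1.78 ± 0.47 (adjusted p = 0.00819). H2-Aa, an alpha chain, was at 2689, 2369.5 and 2806 against 667, 596 and 702, a rise of 2.00, and the beta chain H2-Eb1 (2.18) rose too. H2-Ob, part of the complex that restrains peptide loading, was at 239.7, 229.5 and 221 against 30.8, 26.6 and 32.5, a rise of 2.90, and its partner H2-Oa (1.96) rose with it. The groups were apart for Cd74, H2-Aa and H2-Ob.

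In the B cell receptor pathway 7 of 37 rose and none fell (median 0.73), with 17 risers without the divergent libraries and 3 on TPM as deposited. There were 4 without Blimp1+ replicate 1 or 2 or 44 h replicate 1, and 3 without 44 h replicate 2. Cd79a, a signalling chain of the receptor whose levels are given above, rose by 2.34 ± 0.48 (adjusted p = 0.000699), and its partner Cd79b (1.69), the complement receptor Cr2 (1.45) and the Fc receptor-like Fcrla (2.04) rose too. Ms4a1, which encodes CD20, was at 263, 231 and 299 against 129, 102 and 155 (1.05, adjusted p = 0.173, and 0.0258 without the divergent libraries). Its levels did not overlap between the groups. Of 26 surface genes of follicular and marginal zone B cells 11 rose and none fell (median 0.93; 4 on TPM as deposited, 7 without Blimp1+ replicate 1 and 6 without 44 h replicate 2). They included the glycoprotein Cd52 (2.26) and the egress receptor S1pr1 (2.22).

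Activation genes were split. Of 40 tested 9 rose and 4 fell, with a median of 0.08 that was -0.14 on TPM as deposited and -0.02 in the authors' log2 table. Il10, the suppressive cytokine, was at 39.2, 43.3 and 52.6 against 12, 11.7 and 13.4 scaled TPM (1.77 ± 0.59, adjusted p = 0.0426), and Ltb (2.15) and Il2ra (1.77) rose too. The fallers were expressed at low level. Lta, lymphotoxin alpha, was at 1.96, 1.69 and 0.557 against 8.88, 8.08 and 8.13 (-2.02), Tnf at 0.813, 0.847 and 1.59 against 4.63, 3.16 and 5.7 (-1.39), and the chemokine Ccl3 (-1.92) and the costimulatory receptor Tnfrsf4 (-1.63) fell with them. All 3 cultures exceeded all Blimp1+ libraries for Lta and Tnf.

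Of 26 genes of the class switching list 3 fell, the chaperonin Hspd1 (-2.26), the repair endonuclease Apex1 (-1.78) and the transcription factor Batf (-1.10), while the amino acid oxidase Il4i1 (3.01) was among the genes that rose. Interferon response genes gave 11 of 32 up and none down (median 1.05), but 1 up on TPM as deposited. Irf7, the factor that amplifies type I interferon, led them at 108, 98.1 and 111 against 19.7, 23.1 and 12 (a rise of 2.51). Of 26 genes of the Notch pathway, which the stroma engages, 1 rose, Il2ra, a share below the 7.02% of all genes, and no other was called. The Notch targets Dtx1, at 47.7, 54.5 and 50.0 against 46.4, 34.9 and 32.1 (adjusted p = 0.789), and Hes1, at 1.21, 1.21 and 2.59 against 2.14, 4.51 and 0.918 (adjusted p = 0.971), were not.

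Genes of growth were lower in Blimp1+ cells. The Myc and ribosome biogenesis list took 0.234% to 0.237% of TPM in the Blimp1+ libraries and 0.919% to 1.01% at 44 h, and 31 of its 40 members fell while 2 rose, with a median of -1.60. On TPM as deposited 29 fell, and 24 with antibody genes removed and the rest rescaled. Myc itself was at 69.7, 72.5 and 85.4 against 179.6, 164 and 182 scaled TPM (-1.20 ± 0.38, adjusted p = 0.0294). Ncl, the nucleolar protein nucleolin (chromosome 1, 86344719 to 86359400, minus strand), was at 156, 169 and 209.8 against 638, 408 and 672 and fell by 1.66. Npm1, the nucleolar chaperone nucleophosmin (chromosome 11, 33152287 to 33163206, minus strand), was at 633, 561 and 746 against 1996, 1541 and 2142 and fell by 1.54. The groups did not overlap for these 3 genes. The largest falls of the list were Rrp9 (-2.43), a subunit of the particle that processes ribosomal RNA, the assembly factor Rrp12 (-2.22), Gar1 (-2.16) of the particles that modify ribosomal RNA, and Mybbp1a (-2.08). The risers, Mxd4 (2.42) and Mxd1 (1.46), encode partners of Max that oppose Myc.

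DNA replication genes fell in 13 of 40 cases and none rose, with a median of -0.85. The fallers numbered 27 without the divergent libraries, 14 on TPM as deposited, 5 with antibody genes removed and the rest rescaled, and 6 to 8 when any 1 of the 6 libraries was left out. Mcm5, a subunit of the replicative helicase, was at 107, 102 and 89.2 against 232, 256 and 231 scaled TPM, without overlap (-1.26 ± 0.39, adjusted p = 0.0252). The polymerase subunit Pola1 (-1.83), the cyclin Ccne1 (-1.40) and the origin protein Orc6 (-1.28) fell too. Of 32 mitosis genes 2 fell, Ccnb1 (-1.46) and Cdca8 (-0.83), a share near the 5.03% of all genes, and 1 did without Blimp1+ replicate 1 or 3 or 44 h replicate 2. Their median was -0.36. Mki67, the proliferation antigen, lay at 38.6, 34.7 and 40.0 against 28.7, 22.6 and 27.7, higher in every Blimp1+ library but not called (adjusted p = 0.201, and 0.0322 without the divergent libraries). Of 23 cell cycle inhibitors and quiescence genes 5 rose and 1, E2f4 (-1.30), fell, a call that held without 44 h replicate 3 but not without any other of the 6 libraries. The PI3 kinase inhibitor Pik3ip1 (2.58), the antiproliferative Btg2 (2.43) and the damage-response gene Gadd45a (1.92) were among the risers.

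Proteasome subunits fell in 18 of 33 cases (median -0.74), led by Psmd7 (-1.34) and Psmc5 (-1.26) of the cap, while Psmb9 (0.97), a subunit of the immunoproteasome, rose. Their summed TPM was 1.03% to 1.08% against 1.9% to 2.12%. On TPM as deposited 16 fell, and 7 with antibody genes removed and the rest rescaled. In oxidative phosphorylation 5 of 33 fell (median -0.36), led by the cytochrome c gene Cycs (-1.23) and including the ATP synthase subunit Atp5b, at 1059, 969.7 and 1183 against 2017, 1823 and 2087 scaled TPM. Glycolysis gave 3 up and 1 down of 26, where 7.02% of all genes rose and 5.03% fell. Its median of 0.04 turned to -0.29 on TPM as deposited, -0.20 after quantile normalization and -0.05 in the authors' log2 table. The aldolase Aldoc (2.50) and the enolase Eno2 (1.88) rose and the mutase Pgam1 (-0.81) fell, though not with any 1 of the 6 libraries left out. Of 26 cholesterol synthesis genes 1, Msmo1 (0.81), rose, a share below the 7.02% of all genes. None did without Blimp1+ replicate 1 or 2 or 44 h replicate 1. Of 22 genes of the Bcl2 family and survival 3 rose, beside 7.02% of all genes. They were Mcl1 (1.74), which protects plasma cells, and the death-promoting Bmf (1.79) and Bcl2l11 (0.71). Bmf alone of the 3 passed without Blimp1+ replicate 2 or 3 or 44 h replicate 1 or 2.

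Genes that respond to cell handling moved both ways. Of 17 tested, 2 rose, Fos, at 24.4, 29.7 and 33.6 against 0.828, 0.789 and 0.853 scaled TPM, and Egr1 (3.48). Another 2 fell, Atf3 (-1.65) and the chaperone Hspa8 (-1.07), where 7.02% of all genes rose and 5.03% fell. Without the divergent libraries 7 rose and 4 fell, beside 14.4% and 10.1% of all genes. With the 6 libraries alone 7 rose and 5 fell, beside 19.8% and 13.8%. The median was 0.56, and the part of handling in other results was not tested.

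The largest rises of well expressed genes included several of no list above. Slpi, a secreted inhibitor of neutrophil proteases (chromosome 2, 164354070 to 164389095, minus strand), was at 469, 408 and 631 against 6.44, 4.97 and 8.44 scaled TPM, a rise of 6.05 ± 0.79 (adjusted p = 1.14e-06). Prg2, known as the major basic protein of eosinophils, was at 30.8, 35 and 34.6 against 0.713, 0 and 0.734. Gpx3, the secreted glutathione peroxidase, was at 26.8, 31.4 and 30.5 against 0.315, 0.409 and 0.214. These 3 genes code for secreted or granule proteins and were near the floor or low at 44 h. Hid1, a Golgi-linked protein of secretory granule sorting, was at 47.8, 49.1 and 42.6 against 1.5, 1.61 and 1.45 (4.24). Gh, growth hormone, was at 56.3, 61.2 and 77.3 against 3.2, 2.09 and 2.59 (4.18), with 27.5, 32.4 and 218 at 68 h. The adhesion protein Amigo2 was at 38.7, 62.7 and 54.1 against 2.56, 3.43 and 0.714 (4.11). Genes whose groups overlapped could not enter this ranking.

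Among the largest falls were Gart, a trifunctional enzyme of purine synthesis, at 45.5, 49.2 and 36.3 against 263, 288 and 239.8 scaled TPM (-2.57), Wdr4 (-2.62) of a tRNA methyltransferase, the RNase P subunit Rpp40 (-2.65) and the ribosome assembly chaperone Grwd1 (-2.57). Tmem69 (-2.81), Synb (-2.61) and the exchange factor Arhgef40 (-2.80) fell too. The steepest, Kansl2-ps (-3.81), is a pseudogene that can share reads with its parent gene, so its value is uncertain. Judged by the difference in mean scaled TPM, the largest gains outside antibody were Cd74, H2-Ab1 (1.54), Sub1 (1.56), Mzb1, Ifi27l2a (3.03) and Tmsb4x (1.40). The largest losses were Eif5a (-1.73), Slc25a5 (-1.15), Ranbp1 (-1.77), H2afz (-0.92), Npm1 and Hspa8. Eif5a, a translation factor, was at 1741, 1639 and 1575 against 5337, 6064 and 5092, and Ranbp1, a partner of the nuclear transport GTPase Ran, at 507, 512 and 609.7 against 1997, 1822 and 1737. Every culture was above every Blimp1+ library for both.

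The 68 h culture gives the levels at a later time. Comparisons with 44 h and with 68 h share the Blimp1+ libraries, so their values stand side by side only. Against 68 h, without the divergent libraries and so with 2 replicates at 68 h, 476 genes (3.05% of those tested) were higher in Blimp1+ cells and 99 (0.634%) lower. Prdm1 was at 3.49, 5.79 and 5.29 scaled TPM in the 3 replicates at 68 h, Xbp1 at 149.5, 134 and 30.9 and Mzb1 at 766, 805 and 395. The log2 fold changes of Blimp1+ cells against 68 h were 3.79, 3.17 and 2.35, beside 4.01, 3.17 and 2.75 against 44 h. Igj was at 2.44, 0.603 and 1.78 and Slpi at 1.33, 2.42 and 0 at 68 h, with log2 fold changes of 9.89 and 7.45 beside 6.56 and 6.05. For these 5 genes no library of either culture reached the lowest Blimp1+ library. The antibody share at 68 h was 3.00% and 2.90%, and 0.998% in the divergent replicate 3.

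Against 68 h, 21 of 31 ER chaperones rose (median 1.42, beside 0.00 over all genes), as did 11 of 24 genes of ER-associated degradation (1.00), 11 of 26 of translocation (0.91) and 9 of 18 plasma cell regulators (1.41), or 8 of 17 without Prdm1. Hspa5, not called against 44 h, was at 1127, 988 and 392 scaled TPM at 68 h and rose by 1.14 against it (adjusted p = 0.00743). MHC class II had a median of 0.04 there, with 1 of 20 up and 1 down, the B cell receptor pathway -0.11, DNA replication 0.07, the proteasome 0.02 and interferon genes 0.03. The Myc and ribosome biogenesis list had -0.40, with 2 of 40 down.

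By gene, Cd74 was at 13845, 13723 and 4677 scaled TPM at 68 h, Npm1 at 716, 787 and 805 and Mcm5 at 106, 100.4 and 37.7. In replicates 1 and 2 these 3 genes lay nearer to the Blimp1+ cells than to the 44 h culture. Ighd was at 222, 214 and 222 at 68 h, and the log2 fold change of Blimp1+ cells was -2.45 (adjusted p = 8.96e-06) beside -0.19 against 44 h. The B cell transcription factors Spib and Stat6 were lower in Blimp1+ cells than at 68 h by 1.36 (adjusted p = 0.0386) and 1.21 (adjusted p = 4.91e-05), beside -0.37 and -0.74 against 44 h. Stat6 also passed against 44 h without the divergent libraries (adjusted p = 0.00105). Whether the 2 comparisons differ for a gene was not tested.

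**Figure D5:**
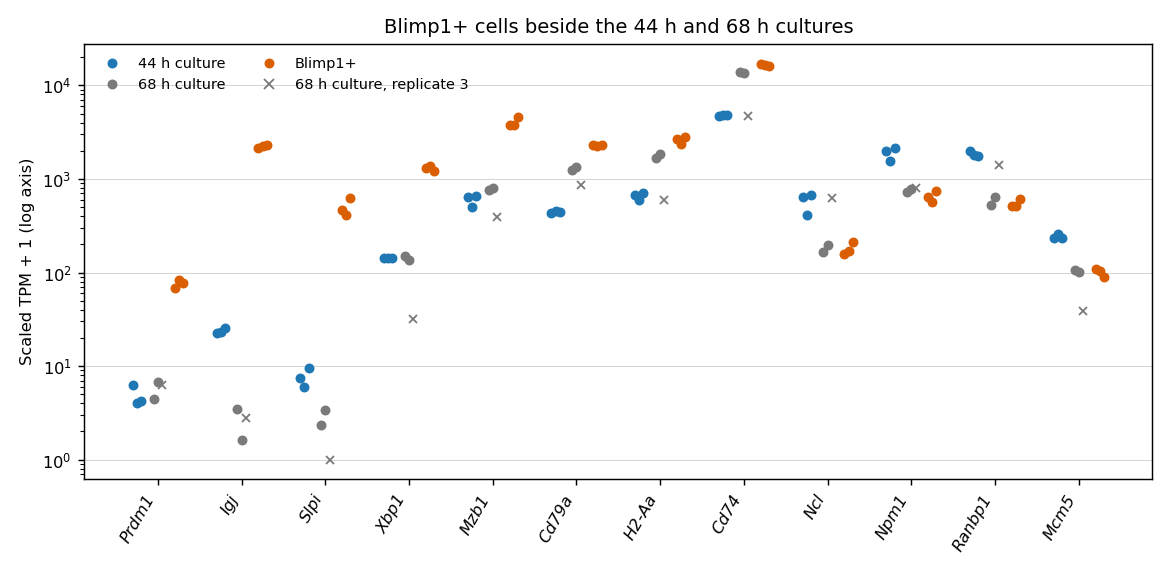
Scaled TPM + 1 (log axis) of 12 genes in the 44 h culture, the 68 h culture and the Blimp1+ cells, 3 libraries each, with the divergent replicate 3 of 68 h as a cross. Prdm1, Igj, Slpi, Xbp1 and Mzb1 are highest in all 3 Blimp1+ libraries, while for Npm1 and Mcm5 replicates 1 and 2 of 68 h lie beside the Blimp1+ libraries.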

How the data were processed

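Poly(A) RNA of sorted cells was made into cDNA with a SMART-seq kit and into libraries with Nextera XT, per the labels' protocols, and sequenced as single-end reads on 2 kinds of Illumina machine whose assignment to libraries is not given in the sources used here. The deposited TPM values were made by the authors with kallisto against GRCm38 (mm10), per the submitters' processing notes. A deposited log2 table of the authors, log2 of estimated counts per 1e+06, served as an alternative, and the estimated reads per library were recovered from its lowest value.

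TPM was divided by median-ratio size factors (0.442 to 1.43), and genes with at least 1 TPM in at least 3 of 45 libraries were kept. log2(scaled TPM + 1) was fitted in R 4.3.3 with limma 3.58.1 over 15 group means, with trended and robust variances, and p-values were adjusted by Benjamini-Hochberg over all genes tested, with a threshold of 0.05. The script was tested on simulated data. Alternatives were TPM as deposited, antibody genes removed, quantile normalization, no filter on low values or a higher one (5 TPM), a smaller pseudocount (0.1), fewer libraries, a replicate block, each replicate left out, and 68 h as the reference. The 10 divergent libraries are those that earlier results of these data set apart: the 20 h cultures of OP9-DL1 with LPS and of OP9 with anti-IgM, and replicate 3 of 4 groups at 68 h. In replicate 3 of OP9-DL1 with LPS at 68 h, Actb stood at 85337 TPM against 985 and 1240.5 in the other replicates. Removal of stroma genes and the regulator list without Prdm1 were added after seeing the data.

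The comparison, the gene lists and the rule for named genes were chosen with earlier results of these data known. Named are a fixed set of genes, the 8 largest rises and 8 largest falls among called genes of at least 10 scaled TPM without overlap, the 6 largest gains and losses in TPM, up to 4 called members of each list each way, and members that were not called; some of these genes are not reported here. Bhlha15, Ell2, Ern1, Ncl, Ighm, Ighg2b, Iglc2, Iglv1, Hsp90b1, Dnajc3, Pdia6, P4hb, Calr and Creld2, and Cct7 below, lie outside that rule and were chosen after their values were seen. Symbols are those of the deposited table, in which Igj is the J chain gene. No column of per-sample values was left unused.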

Additional observations from a re-analysis of the deposited data

How the results depend on the processing

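Beside the 1881 genes called, 1685 were called with antibody genes removed before size factors (918 higher, 767 lower), 1015 with them removed and the rest rescaled without size factors (593 higher, 422 lower) and 1166 in the authors' log2 table (595 higher, 571 lower), and on TPM as deposited 477 were higher. Without the divergent libraries 3819 passed (2241 higher, 1578 lower) and with the 6 libraries alone 5257 (3097 higher, 2160 lower), where fewer libraries set the spread. Leaving out 1 replicate gave 1305 to 1403 calls, 742 to 820 higher and 532 to 583 lower. With a replicate block 1978 passed over 45 libraries (1148 higher, 830 lower) and 4400 over the 6 (2532 higher, 1868 lower). Deviations of same-numbered libraries correlated at -0.03, 0.07 and 0.01, and those of differently numbered ones at -0.07 to 0.06. With 3 libraries a group these values cannot show whether same-numbered samples share a mouse or a culture, so pairing is unknown. Against 68 h 444 passed (400 higher, 44 lower), and 575 (476 higher, 99 lower) without the divergent libraries. The difference in antibody share was 17.7 percentage points, 17.5 to 17.9 with 1 replicate left out, and 8.59 for constant regions and the J chain only, by construction. Apart from the shift by construction and the fits with fewer libraries, the cause was not tested.

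The direction of genes that were not called turned in places. The log2 fold change of Sdc1 was -0.22 on TPM as deposited, -0.32 after quantile normalization, -0.069 in the authors' log2 table, and -0.16 and -0.055 without Blimp1+ replicate 2 and 44 h replicate 1. The log2 fold change of Tnfrsf17 was -0.11 after quantile normalization and -0.077 and -0.041 without Blimp1+ replicate 3 and 44 h replicate 1, and the log2 fold change of Hes1 ranged from -0.68 without 44 h replicate 3 to 0.084 without 44 h replicate 2. Other reversals came with 68 h as the reference, which is another comparison. There the log2 fold changes were Aldoc -0.28, Atf6 -0.25, Bcl6 -0.61, Btg2 -0.45, Ccne1 0.22, Cct7 0.21, Cd38 -0.15, Cycs 0.54, Gpt2 0.46, H2afz 0.24, Mcm5 0.42, Mogs 0.24, Mrpl12 0.56, Ms4a1 -0.33, Mthfd1 0.25, Mxd4 -0.31, Psat1 0.063, Tnfrsf17 -0.55, Tomm40 0.37, Trib3 0.39 and Umps 0.24. Without the divergent libraries they were Aldoc -0.53, Arhgef40 0.27, Atp5b 0.062, Bcl6 -0.55, Canx 0.13, Ccne1 0.23, Cd38 -0.33, Ciita -0.25, Cycs 0.52, Dtx1 -0.33, Fcrla -0.098, H2-Oa -0.37, H2afz 0.18, Hes1 0.26, Il4i1 -0.23, Mogs 0.16, Ms4a1 -0.15, Msmo1 -0.064, Mxd4 -0.16, Pik3ip1 -0.11, Synb 0.015 and Tnfrsf17 -0.071. Of all other values of named genes and totals, 68 h included and leave-one-out fits aside, 2076 kept direction and side of the threshold, 368 lost the call and 38 gained one.

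TPM keeps no count of reads. Estimated counts can be recovered from the authors' log2 table, but no counting interval was computed from them for low genes such as Tnfrsf17.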

Other observations

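Families of housekeeping genes, gathered after the values were seen and so given as description only, had lower medians in Blimp1+ cells. All 7 tested subunits of the CCT chaperonin, the folding chamber for actin and tubulin, fell (median -1.21), from Cct8 (-1.63) to Cct7 (-1.04), and 6 did so on TPM as deposited. Of 79 mitochondrial ribosomal proteins 31 fell and none rose (median -0.77; 45 on TPM as deposited, 16 with antibody genes removed and the rest rescaled), led by Mrpl12 (-1.52) and Mrps10 (-1.45). Of 79 cytosolic ribosomal proteins 1, Rpl7l1 (-0.89), fell (called without 44 h replicate 2, not without any other of the 6 libraries) and the median was -0.03, which was -0.37 on TPM as deposited.

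Of 24 genes of mitochondrial protein import 8 fell, among them Timm10 (-2.41), Timm8a1 (-2.30) and Tomm40 (-2.24). Of 20 enzymes of nucleotide and one-carbon synthesis 13 fell and 1, Ctps2 (1.54), rose (median -1.49), with Shmt1 (-2.45), Mthfd1 (-1.86) and Umps (-1.83) next to Gart. Of 37 tRNA synthetases 11 fell (median -0.75), of 28 RNA polymerase subunits 11 (-0.81) and of 60 translation initiation factors 17 (-0.58). With 1 of the 6 libraries left out 10 to 11 initiation factors fell, and 7 synthetases without Blimp1+ replicate 3. With antibody genes removed and the rest rescaled without size factors 5 of the nucleotide enzymes fell, 3 synthetases, 5 polymerase subunits and 5 initiation factors. Against the 68 h culture without the divergent libraries the medians were -0.22 for CCT, 0.07 for mitochondrial ribosomal proteins, 0.57 for cytosolic ones, -0.33 for nucleotide synthesis and -0.08 for tRNA synthetases.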
